A study of Rattus norvegicus with 6 samples.

Results

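The mitochondrial ribosomal proteins are the nuclear-encoded proteins of the ribosome inside mitochondria. They were taken as the protein-coding genes of the table whose symbol starts with Mrpl or Mrps followed by a digit, with the row of highest mean standing for a symbol. The rule gave 75 symbols in 76 rows of a table of 32623 genes, 45 named for the large and 30 for the small subunit. Of these, 74 had a mean of at least 1 FPKM (a read level per transcript length and per library size) and were tested, 45 of the large and 29 of the small subunit. Mrps21l had a count of 0 in all 6 libraries, which allows up to 3 counts in each, and was not tested.

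The cells were primary cardiomyocytes from the ventricles of Sprague-Dawley rats at postnatal day 1 to 3, from a single isolate that pooled several animals. A control small interfering RNA (siNC, 3 libraries) or one directed at Mettl3 (siMettl3, 3 libraries) was given for 24 h, and both groups then received lipopolysaccharide (LPS) for 6 h. Mettl3 is the methyltransferase that makes N6-methyladenosine in messenger RNA. No library without LPS was analysed here, and the p-values measure the spread between samples of 1 isolate, which may be technical.

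Mitochondrial ribosomes translate the messenger RNAs of mitochondrial DNA, which encode core subunits of the respiratory chain and of ATP synthase. All of their proteins are made in the cytosol and imported, and are assembled on ribosomal RNAs transcribed from mitochondrial DNA. Many have homologues in bacterial ribosomes, while others have none. Cardiac muscle depends on oxidative phosphorylation, and inherited defects of several of these proteins in humans affect the heart.

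Letters shared by the promoters are shown first, because they were not part of the rule that chose the genes. RefSeq promoters of the rat build GRCr8, each 250 bases before to 50 bases after the annotated start, were matched by symbol for 59 of the 75 genes. A set of 5 motifs linked to nuclear genes for mitochondrial proteins or to housekeeping promoters were searched by exact letters on both strands. The core of the site of NRF1, GCGCATGC, was in 5 of the 59 promoters (8.47%) and in 3.22% of 18999 protein-coding promoters of the same length. The ETS-family letters CCGGAAGT, which GABP binds, were in 8 (13.6%, against 4.99%). The YY1 letters AAGATGGCG were in 9 (15.3%, against 2.29%). At least 1 of these 3 motifs was in 21 of the 59 promoters (35.6%), against 9.81% of all. The E-box CACGTG was in 5 (8.47%, against 7.26%) and the GC box GGGCGG in 30 (50.8%, against 43.1%). The median GC content was 56% in the 59 promoters and 55.3% in all. These shares are a description of letters, not of binding. The YY1 letters contain ATG, and a match after the start of transcription can therefore also be a start of translation.

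The following stretches run from 100 bases before to 30 bases after the annotated start, 5′ to 3′ on the gene's strand. They show the motif matches in the gene with the highest level of the family (Mrpl17) and in 4 others described below. Capitals mark matches to the NRF1, ETS, YY1 and E-box letters, and where the capitals run to 10 letters, the NRF1 core matches on both strands with an overlap.
Mrpl17, chr1:169575670-169575799, minus strand, NRF1 core: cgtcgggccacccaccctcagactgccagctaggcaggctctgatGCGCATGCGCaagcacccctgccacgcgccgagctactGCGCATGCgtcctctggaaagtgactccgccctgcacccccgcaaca
Mrpl32, chr17:55260551-55260680, plus strand, NRF1 core: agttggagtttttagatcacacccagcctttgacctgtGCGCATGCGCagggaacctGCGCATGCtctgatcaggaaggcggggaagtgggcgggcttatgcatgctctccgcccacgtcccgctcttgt
Mrps18b, chr20:2842906-2843035, plus strand, E-box and NRF1 core: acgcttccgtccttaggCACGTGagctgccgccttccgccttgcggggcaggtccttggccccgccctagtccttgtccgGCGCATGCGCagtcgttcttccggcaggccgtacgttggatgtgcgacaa
Mrpl53, chr4:117172943-117173072, plus strand, ETS: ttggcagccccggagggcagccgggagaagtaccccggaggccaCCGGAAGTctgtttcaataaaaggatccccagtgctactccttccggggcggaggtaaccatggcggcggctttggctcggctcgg
Mrps18a, chr9:22367351-22367480, minus strand, YY1: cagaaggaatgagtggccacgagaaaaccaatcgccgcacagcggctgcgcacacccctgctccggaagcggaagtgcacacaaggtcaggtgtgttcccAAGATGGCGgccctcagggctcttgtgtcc

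No promoter entry was matched for Mrpl13, Mrpl15, Mrpl16, Mrpl19, Mrpl21, Mrpl35, Mrpl38, Mrpl43, Mrps12, Mrps21l, Mrps22, Mrps24, Mrps28, Mrps34, Mrps35 and Mrps36.

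Mettl3 was 18.2, 17.2 and 15.3 FPKM in the siNC libraries, and 10.3, 10.6 and 9.90 FPKM in the siMettl3 libraries, in the order of replicates 1, 2 and 3 used throughout. Its log2 fold change was -0.67 ± 0.07 (SE; adjusted p = 0.0066, limma with Benjamini-Hochberg adjustment over 13105 genes). Total counts were 71202469 to 76668751 per library. Of all genes tested, 1432 (10.9%) passed an adjusted p of 0.05 by limma on log2(FPKM + 1), the test behind every adjusted p below that names no other tool. Higher in siMettl3 were 856 genes (6.53%) and lower were 576 (4.4%). This split turned with the scaling: 358 were higher and 781 lower after median-ratio scaling, and 445 higher and 864 lower by edgeR. Of 8 cardiomyocyte markers, none passed the test by limma, and edgeR called 1 lower. By limma, 4 had a log2 fold change above 0 and 4 below. Their summed level was 22443 to 26476 FPKM in siNC and 18801 to 22170 FPKM in siMettl3, lower without overlap. Markers of other cells were lower in siMettl3: 4 of 7 tested for fibroblasts (summed level 1433 to 1504 FPKM, then 884 to 939 FPKM), 5 of 6 for macrophages (69.4 to 85.5 FPKM, then 35.9 to 47.0 FPKM) and 4 of 6 for smooth muscle (3715 to 4216 FPKM, then 2491 to 2702 FPKM). Of 4 endothelial markers tested, 2 were higher and 1 was lower (13.9 to 15.8 FPKM, then 15.8 to 16.96 FPKM). In bulk RNA, fewer cells of a type and less RNA per cell cannot be told apart. The part of these markers in the values below was not tested.

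No mitochondrial ribosomal protein gene passed the test between siMettl3 and siNC: 0 of 45 of the large subunit and 0 of 29 of the small subunit, where 10.9% of all genes did. At an unadjusted p of 0.05, 4 of the 74 passed, against 31.4% of all genes. On the counts of the same table, edgeR called 0 of the 74 (9.99% of all genes) and DESeq2 called 0 (18.3% of all genes). The libraries of the 2 groups did not overlap for 3 of the 74 genes (4.05%), Mrps2, Mrpl35 and Mrpl49, all higher in siMettl3, while they did not overlap for 37.9% of all genes. Log2 fold changes ran from -0.27 to 0.26. The size of the difference was under 0.1 on this scale for 47 of the 74 genes. For 70 of the 74 genes the 95% interval of the fold change lay within 1.5-fold in either direction, as it did for 10689 of all 13105 genes tested. The exceptions in the family were Mrpl14, Mrps24, Mrps18b and Mrps18c.

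**Figure D1:**
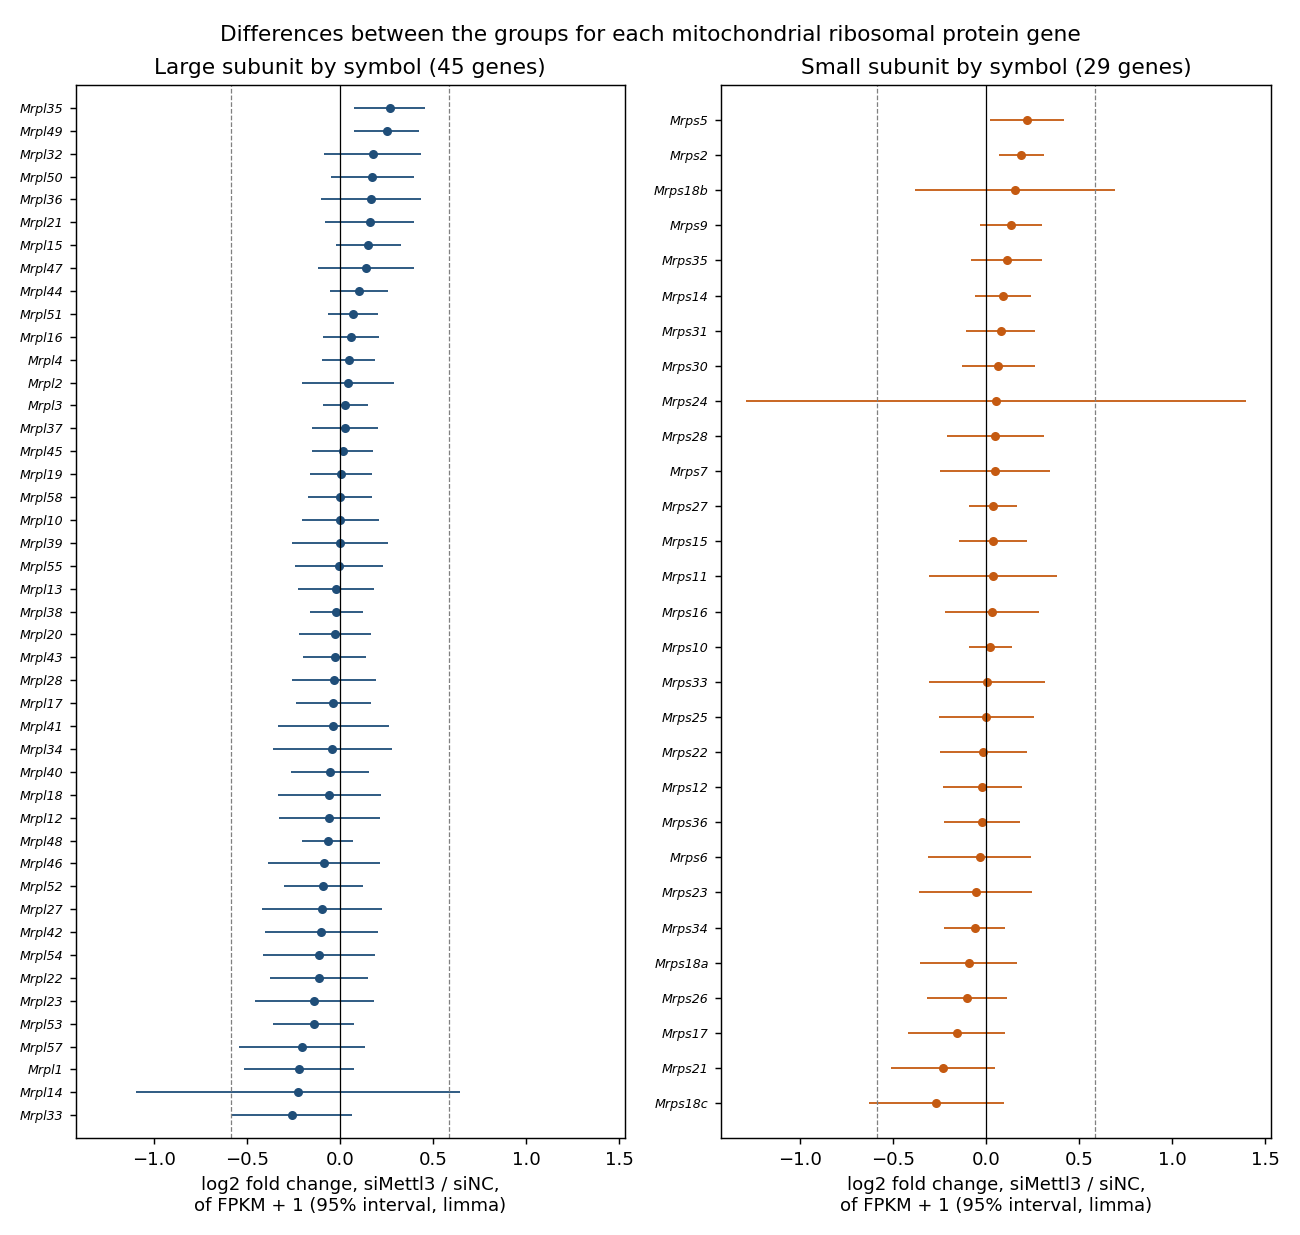
Log2 fold change (siMettl3 over siNC, of FPKM + 1) with its 95% interval from limma for each of the 45 large-subunit and 29 small-subunit genes, ordered by size; dashed lines mark 1.5-fold. All 4 intervals that exclude 0 (Mrpl35, Mrpl49, Mrps5 and Mrps2) lie on the higher side, and none of the 74 genes had an adjusted p under 0.05.

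The median log2 fold change was -0.02 over the large-subunit genes (18 of 45 above 0) and 0.03 over the small-subunit genes (18 of 29 above 0), beside 0.07 over all genes tested. The sign of the small-subunit median turned with the scaling, to -0.04 after median-ratio scaling, -0.02 after quantile normalization and -0.05 by edgeR, where the median of all genes was 0.01, 0.02 and 0.00. The large-subunit median stayed below 0 under these, at -0.09, -0.06 and -0.10. The genes above 0 were then 10, 11 and 9 of 45 in the large and 7, 11 and 7 of 29 in the small subunit. Leaving out single libraries moved both medians across 0: the large-subunit median was 0.03 without siNC replicate 2 and 0.05 without siMettl3 replicate 2, and the small-subunit median was -0.06 without siNC replicate 3, and -0.03 and -0.02 without replicate 1 or replicate 3 of siMettl3. With single libraries left out, 14 to 34 of the 45 and 9 to 22 of the 29 genes lay above 0, both lowest without siNC replicate 3 (14 for the large subunit also without siMettl3 replicate 1) and highest without siMettl3 replicate 2.

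Summed over the large-subunit genes, the level was 1465, 1568 and 1356 FPKM in the siNC libraries and 1496, 1301 and 1525 FPKM in the siMettl3 libraries. The means were 1463 ± 106 and 1441 ± 122 FPKM (SD, n = 3 each). Summed over the small-subunit genes, it was 810, 879 and 746 FPKM, then 865, 716 and 840 FPKM, with means of 812 ± 66.4 and 807 ± 79.5 FPKM. Both sums overlapped between the groups, and the summed mean of all 74 genes in siMettl3 was 98.8% of that in siNC. Within a group the highest library exceeded the lowest by 1.16-fold in siNC and 1.17-fold in siMettl3.

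Levels differed 24.7-fold between the genes, from 5.87 FPKM for Mrpl57 to 145 FPKM for Mrpl17, with a median of 24.0 FPKM (10.2 FPKM over all genes tested). Between 10 and 60 FPKM lay 64 of the 74 genes. Mrpl17, a protein at the rim of the exit tunnel with a bacterial homologue, was at 149, 158 and 134 FPKM in siNC and 150, 130 and 150 FPKM in siMettl3. It stood apart from the next genes: Mrps25 had a mean of 78.5 FPKM, Mrpl42 74.9 FPKM, Mrpl33 72.6 FPKM and Mrpl13 65.4 FPKM. Mrps25, a small-subunit protein without a bacterial homologue, was at 79.4, 84.6 and 71.1 FPKM in siNC and 85.6, 67.2 and 83.1 FPKM in siMettl3, and Mrpl42 at 78.6, 87.5 and 66.6 FPKM, then 78.8, 61.5 and 76.3 FPKM. The ranges of Mrps25 and Mrpl42 overlapped, so their order is not set by these libraries. At the low end, Mrpl57 was at 6.69, 7.25 and 5.13 FPKM, then 6.24, 4.54 and 5.34 FPKM. Mrpl1, Mrpl36, Mrpl47 and Mrps35 also had means below 10 FPKM. Across the 74 genes the log2 means of the 2 groups correlated with Pearson r of 0.991, which describes a shared order of levels over genes of the same libraries.

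**Figure D2:**
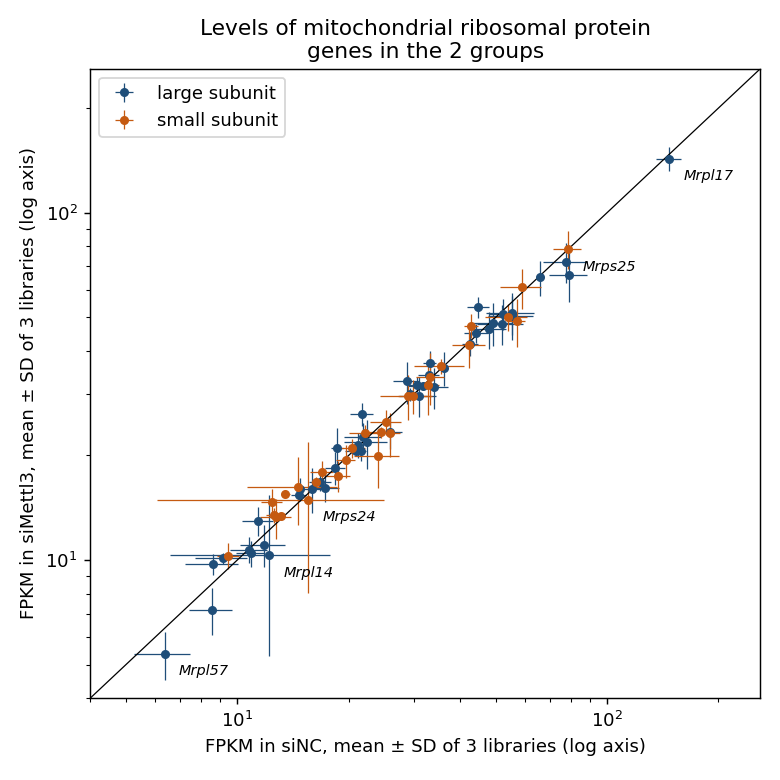
Mean FPKM in siNC (horizontal) against siMettl3 (vertical), both on log axes, for the 74 genes, with bars for the SD of 3 libraries; the line marks equal levels. Mrpl17 stands alone at 145 FPKM, and the widest bars belong to Mrps24 and Mrpl14.

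The 4 genes with an unadjusted p under 0.05 were Mrps2, Mrpl49, Mrpl35 and Mrps5. Mrps2, the homologue of the bacterial small-subunit protein S2, was at 13.1, 13.4 and 13.9 FPKM in siNC and 15.3, 15.7 and 15.6 FPKM in siMettl3. Its replicates lay close together, and its log2 fold change was 0.19 ± 0.05 (SE; 95% interval 0.07 to 0.31; adjusted p = 0.058). It overlaps an opposite-strand gene of 0.024 FPKM by 259 bases, and whether the counting used strand is not given in the sources used here. Mrpl49, a large-subunit protein without a bacterial homologue, was at 44.7, 48.0 and 41.9 FPKM, then 53.7, 49.6 and 57.1 FPKM, a log2 fold change of 0.25 ± 0.07 (SE; adjusted p = 0.073). It overlaps Syvn1 on the opposite strand by 551 bases, and Syvn1 had a mean of 18.7 FPKM. Mrpl35, which has a bacterial homologue, was at 22.3, 23.0 and 19.96 FPKM, then 27.7, 24.0 and 27.4 FPKM, a log2 fold change of 0.26 ± 0.08 (SE; adjusted p = 0.075). Mrps5, near the entry of messenger RNA on the small subunit, was at 12.4, 13.2 and 11.7 FPKM, then 15.5, 13.1 and 15.4 FPKM (log2 fold change 0.22 ± 0.08, SE; adjusted p = 0.13), and its groups overlapped. Under edgeR the adjusted p of Mrps2, Mrpl35 and Mrpl49 was 0.16, 0.19 and 0.22.

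At the other end, Mrps18c had the lowest log2 fold change of the small subunit, -0.27 ± 0.15 (SE; adjusted p = 0.28). It was at 21.3, 27.8 and 23.0 FPKM in siNC and 22.9, 15.7 and 21.3 FPKM in siMettl3, where replicate 2 was the lowest library and the groups overlapped. Mrps21, the homologue of bacterial S21, was at 59.7, 57.7 and 53.4 FPKM, then 53.9, 39.8 and 52.4 FPKM (log2 fold change -0.23 ± 0.12, SE; adjusted p = 0.23). Mrpl33, the homologue of bacterial L33, was at 76.0, 89.5 and 71.6 FPKM, then 68.2, 54.4 and 75.9 FPKM (log2 fold change -0.26 ± 0.14, SE; adjusted p = 0.23). In all 3 genes siMettl3 replicate 2 was the lowest library. Mrpl1, the homologue of bacterial L1, was at 7.65, 9.80 and 8.10 FPKM, then 6.82, 8.42 and 6.29 FPKM (adjusted p = 0.27). The table also lists LOC100359687, named as similar to Mrpl1, at 10.6, 8.13 and 9.25 FPKM, then 9.81, 8.48 and 11.2 FPKM, and how reads were split between the 2 copies is not given, so both values are uncertain.

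Groups of the large subunit by role are described by their medians only, since none of its genes passed the test. The GTPase-associated stalk recruits translation factors. Its 4 genes tested had a median log2 fold change of -0.09. This median leaves out mrpl11, a stalk gene listed in lower case that the rule does not take. The value of mrpl11, given below, was higher than this median. Among the 4 genes, Mrpl12, whose protein forms the stalk tip and also binds the mitochondrial RNA polymerase, was at 51.0, 51.3 and 41.9 FPKM, then 48.1, 39.8 and 50.6 FPKM (log2 fold change -0.06 ± 0.11, SE). Mrpl53, a neighbour of the stalk counted among the 4 genes, was at 23.5, 26.3 and 27.7 FPKM, then 22.2, 26.2 and 21.6 FPKM (log2 fold change -0.14 ± 0.09, SE). The 8 genes of the central protuberance had a median of -0.06, and the 7 tested around the exit tunnel, where the nascent protein leaves, a median of 0.00. The exit tunnel median leaves out mrpl24, also listed in lower case, whose lower value is given below. Genes with a bacterial homologue (25) and genes without one (20) had medians of -0.02 and -0.03 in the large subunit. In the small subunit the medians were 0.04 (16 genes) and 0.00 (10 genes), leaving out Mrps18a, Mrps30 and Mrps36, described below. After median-ratio scaling these medians were -0.09, -0.09, -0.03 and -0.07 in the same order. By edgeR they were -0.09, -0.10, -0.04 and -0.06. Mrpl32, whose protein is cut by a protease of the inner membrane before it joins the ribosome, was at 27.8, 31.4 and 26.9 FPKM, then 33.5, 27.8 and 36.8 FPKM (log2 fold change 0.17 ± 0.11, SE; adjusted p = 0.32).

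Mrpl3, Mrpl44 and Mrps22, in which inherited human defects cause cardiomyopathy, did not pass the test. Mrpl3 was at 28.7, 29.8 and 29.5 FPKM in siNC and 30.9, 28.5 and 30.5 FPKM in siMettl3, with a 95% interval of its log2 fold change from -0.09 to 0.15. Mrpl44 was at 14.4, 15.1 and 14.9 FPKM, then 17.2, 15.9 and 14.8 FPKM (interval -0.06 to 0.26). Mrps22 was at 32.6, 29.8 and 27.3 FPKM, then 31.0, 25.9 and 32.04 FPKM (interval -0.25 to 0.22). The groups overlapped for all 3.

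Some symbols do not say where the protein sits. Mrps18a and Mrps30 are proteins of the large subunit, and Mrps36 is a subunit of the oxoglutarate dehydrogenase complex. Mrps18a, Mrps18b and Mrps18c descend from 1 bacterial protein, S18. Mrps18a was at 55.2, 60.03 and 46.2 FPKM in siNC and 54.8, 45.7 and 50.2 FPKM in siMettl3. Mrps18b was lower, at 16.9, 16.8 and 10.03 FPKM, then 19.95, 15.9 and 12.8 FPKM. Of the 3, Mrps18a had the highest level in every library, and none of them passed the test. Mrps30 had means of 22.2 ± 2.12 and 23.2 ± 1.36 FPKM and Mrps36 of 19.6 ± 1.14 and 19.4 ± 2.10 FPKM (SD, n = 3 each). Mrps12, the decoding-centre homologue of bacterial S12, was at 24.9, 27.8 and 23.1 FPKM, then 26.5, 22.6 and 25.7 FPKM.

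The median of the family moved more between libraries of 1 group than between the groups. Relative to each gene's mean over the 6 libraries, the median deviation of the 74 genes on the log2 scale was 0.02, 0.10 and -0.11 in the libraries of siNC and 0.06, -0.13 and 0.08 in those of siMettl3. Replicate 3 was the lowest siNC library for 55 genes (74.3%, against 40.7% of all genes tested), and replicate 2 the lowest siMettl3 library for 61 (82.4%, against 36.8%). Both held for 50 genes (67.6%, against 23.3%). The pattern was not particular to the family: both held for 89.2% of 83 nuclear respiratory chain genes and 74.3% of 105 cytosolic ribosomal protein symbols, described below. The 2 subunits moved alike: the deviations in these libraries were -0.11 and -0.13 for the large and -0.10 and -0.14 for the small subunit. Transcripts of the family are short, with a median effective length of 1115 bases against 2297 over all genes, and 47 of the 74 fell in the shortest of 4 length classes that split all genes evenly. That class had deviations of 0.03, 0.06 and -0.06, then 0.03, -0.09 and 0.05, and the longest class -0.06, -0.14 and 0.01, then 0.03, 0.15 and 0.02. After a correction for length in each library, the family's deviations were 0.00, 0.05 and -0.05, then 0.04, -0.07 and 0.03.

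**Figure D3:**
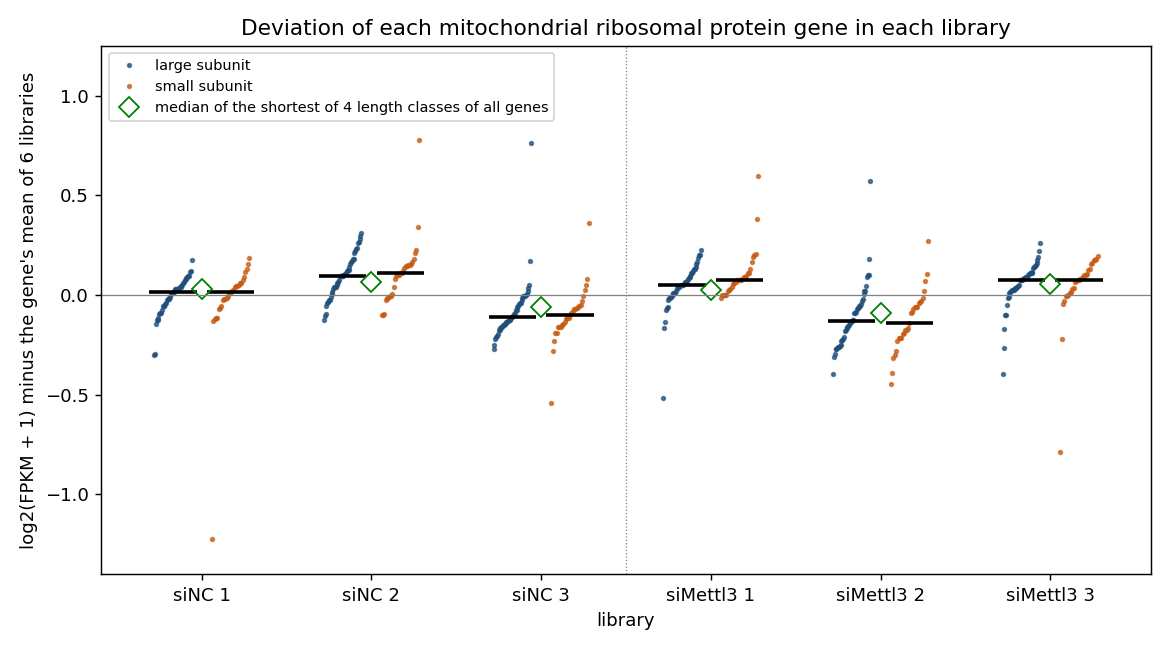
Deviation of each gene's log2(FPKM + 1) from its mean over the 6 libraries (vertical) in each library (horizontal), for large-subunit and small-subunit genes; bars mark the medians and diamonds the median of the shortest length class of all genes. The family sits low in siNC 3 and siMettl3 2, with medians of -0.11 and -0.13.

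Across the 74 genes the log2 fold change ran with effective length, with Pearson r of 0.39 and Spearman rho of 0.41, and r of 0.15 over all genes tested. These are descriptions across genes that share libraries. Over all genes tested, the median log2 fold change ran from -0.01 in the shortest length class to 0.14 in the longest. With the length correction, 14.6% of all genes passed the test, and Mrpl49 (log2 fold change 0.30, adjusted p = 0.0053) and Mrpl35 (0.24, adjusted p = 0.043) were the 2 family genes among them, while Mrps2 moved to 0.09 (adjusted p = 0.28). The medians of the large and small subunit were then 0.00 and 0.03.

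**Figure D4:**
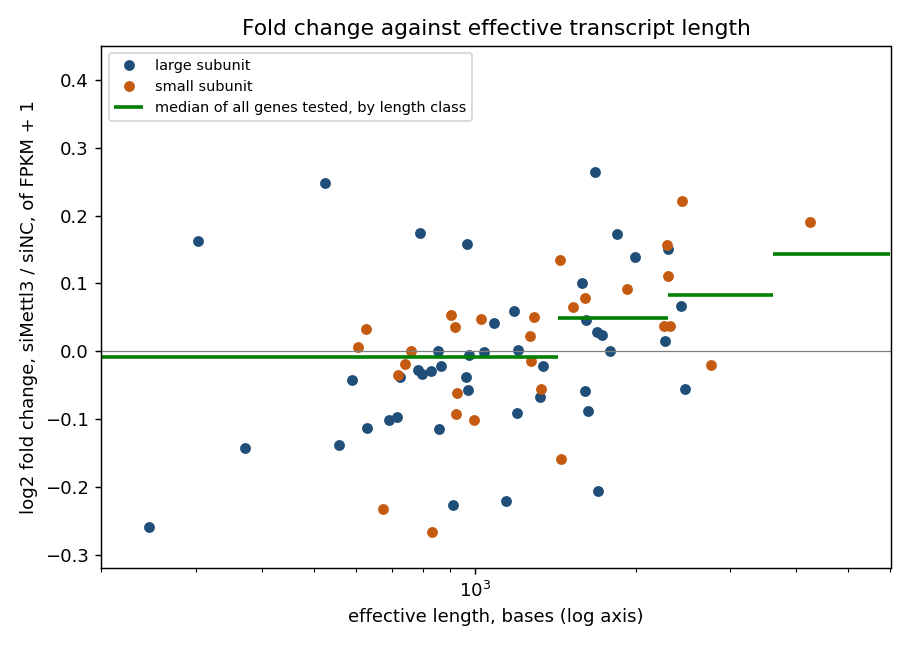
Log2 fold change (vertical) against effective transcript length on a log axis (horizontal) for the 74 genes, with green lines at the median of all genes tested in each of 4 length classes. The lines rise from -0.01 to 0.14, and most of the family lies in the shortest class, up to 1433 bases.

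Likeness was measured as the correlation of a gene's log2 values over the 6 libraries with the median of the family, which includes the genes themselves. It exceeded 0.8 for 36 of the 74 genes (48.6%, against 7.9% of all genes tested). Mrpl41 (0.99), Mrps25 (0.98) and Mrpl17 (0.98) were the most like. Outside the family the most like were Timm8b, a chaperone of the mitochondrial intermembrane space (0.998), Ethe1, a mitochondrial sulfur dioxygenase (0.996), Ube2s (0.996), Rbm8a (0.995) and Rras (0.991). A correlation under 0 was found for 7 genes (9.46%, against 51.0% of all genes tested). In order they were Mrpl14 (-0.89), Mrpl53, Mrps10, Mrpl1, Mrps2, Mrps24 (-0.10) and Mrpl44 (-0.01), so that Mrps24 and Mrpl44 lay near 0. Mrpl14, the homologue of bacterial L14, was at 8.37, 9.59 and 18.6 FPKM in siNC and 7.08, 16.1 and 7.76 FPKM in siMettl3, highest in the 2 libraries where the family was lowest. Mrps24, the homologue of bacterial S3, was at 5.20, 23.8 and 17.6 FPKM, then 20.9, 16.5 and 7.37 FPKM. These spreads of 2.22-fold and 2.28-fold for Mrpl14 and 4.57-fold and 2.83-fold for Mrps24 within the groups compare with under 1.5-fold in both groups for 71 of the 74 genes, and Mrps18b was the third exception.

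Of the 75 genes, 17 had the start of an opposite-strand gene within 1000 bases upstream in the table's coordinates. Mrpl46 and Mrps11 share 1 such interval, of 72 bases in the table and 233 bases in RefSeq's annotation, so a large-subunit and a small-subunit gene face away from each other. The stretch between the RefSeq starts is printed on the strand of Mrpl46, and holds none of the NRF1, ETS, YY1 or E-box letters. The YY1 match counted above for Mrpl46 begins at base 25 after its start, outside this stretch.
Mrpl46 to Mrps11, chr1:142117031-142117263 of GRCr8, minus strand: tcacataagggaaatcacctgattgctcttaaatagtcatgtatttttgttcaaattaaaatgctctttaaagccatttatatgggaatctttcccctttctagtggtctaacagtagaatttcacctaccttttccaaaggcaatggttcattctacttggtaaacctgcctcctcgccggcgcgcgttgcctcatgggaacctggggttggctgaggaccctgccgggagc

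Mrpl46 was at 11.6, 13.6 and 10.3 FPKM in siNC and 12.2, 9.33 and 11.6 FPKM in siMettl3. Mrps11 was higher in each library, at 30.4, 32.8 and 23.8 FPKM, then 33.6, 24.97 and 30.6 FPKM. Both were highest in replicate 2 and lowest in replicate 3 of siNC, and highest in replicate 1 and lowest in replicate 2 of siMettl3. Mrps12 and Sars2, the mitochondrial seryl-tRNA synthetase, start 16 bases apart, and Sars2 had a mean of 5.08 FPKM. Mrpl47 and Ndufb5, a subunit of complex I, start 266 bases apart, with means of 9.63 and 120 FPKM. Another gene overlaps 11 of them, in all but Mrps28 on the opposite strand only, among them Mrpl43 and Twnk, the mitochondrial DNA helicase, by 48 bases.

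The table lists 3 large-subunit genes in lower case, which the rule does not take. Of these, mrpl9 was at 18.6, 18.4 and 18.5 FPKM, then 18.7, 17.3 and 19.0 FPKM, mrpl11 had a log2 fold change of 0.00 ± 0.08 (SE), and mrpl24 one of -0.19 ± 0.08 (SE; adjusted p = 0.17). Of 5 proteins of this ribosome tested under other symbols, Dap3 alone passed the test. Dap3, a GTP-binding protein of the small subunit, was at 29.6, 30.5 and 27.6 FPKM in siNC and 35.8, 34.0 and 34.8 FPKM in siMettl3, with no overlap (log2 fold change 0.25 ± 0.06, SE; adjusted p = 0.039). Ptcd3 was at 15.1, 14.7 and 18.5 FPKM, then 18.4, 21.4 and 16.4 FPKM, and Chchd1 at 42.6, 44.5 and 37.7 FPKM, then 40.2, 27.4 and 40.0 FPKM, both without passing.

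In the rest of the pathway 4 genes passed the test, all higher in siMettl3, out of 100 tested, a smaller share than the 10.9% of all genes. Of 28 assembly factors, 1 was higher and 0 were lower (median log2 fold change 0.10). It was Rpusd3, a mitochondrial pseudouridine synthase, at 3.94, 3.97 and 3.64 FPKM, then 5.29, 4.90 and 4.69 FPKM (log2 fold change 0.30 ± 0.07, SE, adjusted p = 0.049). Of 17 translation factors none passed (median 0.10), and Mtfmt, which formylates the initiator methionine, came nearest at 7.69, 7.14 and 6.85 FPKM, then 10.6, 8.60 and 9.14 FPKM (adjusted p = 0.053). Of 20 mitochondrial aminoacyl-tRNA synthetases, 2 were higher and 0 were lower (median 0.07). Lars2, which charges leucine, was at 8.38, 8.12 and 8.63 FPKM, then 10.5, 10.5 and 10.002 FPKM (log2 fold change 0.27 ± 0.06, SE; adjusted p = 0.032), and Hars2, which charges histidine, at 12.6, 12.2 and 12.6 FPKM, then 15.7, 14.8 and 14.3 FPKM (log2 fold change 0.24 ± 0.06, SE; adjusted p = 0.041). Of 12 genes that replicate and transcribe mitochondrial DNA, Polg, the catalytic subunit of its polymerase, was higher and 0 were lower, at 11.4, 10.8 and 11.8 FPKM, then 13.3, 14.7 and 13.3 FPKM (adjusted p = 0.048). Dap3 and these 4 genes lost the call when any 1 of the 6 libraries was left out, after median-ratio scaling and after quantile normalization. By edgeR their adjusted p was 0.061 to 0.13.

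Of the 13 protein-coding genes of mitochondrial DNA, whose messages the mitochondrial ribosome translates, none passed (median log2 fold change 0.01). Mt-cyb, the cytochrome b of complex III, was at 12893, 14178 and 13405 FPKM in siNC and 11739, 10730 and 11184 FPKM in siMettl3, without overlap (log2 fold change -0.27 ± 0.15, SE; adjusted p = 0.26), and edgeR called it lower (adjusted p = 0.029). Of 10 regulators of mitochondrial biogenesis none passed. Among them Esrra was at 23.4, 23.6 and 22.1 FPKM, then 26.6, 25.8 and 25.4 FPKM (adjusted p = 0.083). Gabpa and Yy1, factors whose letters were searched in the promoters, had log2 fold changes of -0.12 ± 0.06 and 0.11 ± 0.05 (SE; adjusted p = 0.23 and 0.20).

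**Figure D5:**
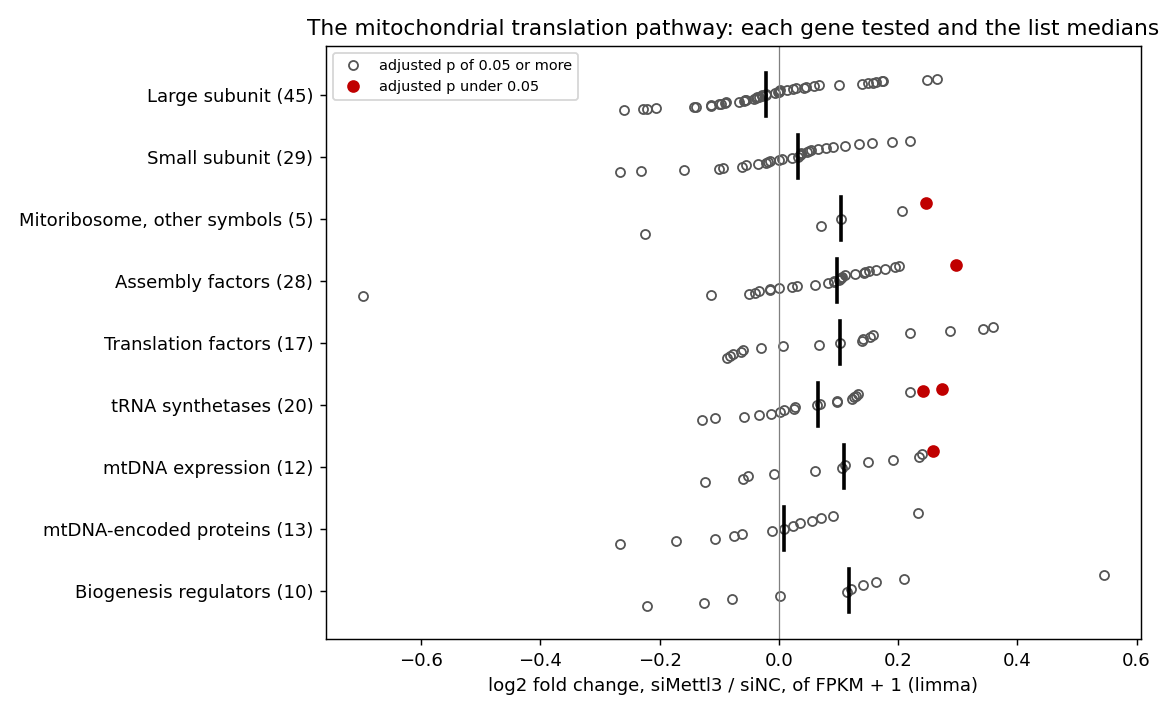
Log2 fold change (siMettl3 over siNC, of FPKM + 1; horizontal) of each gene tested in the 2 subunits and in 7 lists of the mitochondrial translation pathway (number of genes in brackets); bars mark list medians and filled points an adjusted p under 0.05. No point of either subunit is filled, and 5 points of the other lists are, all above 0.

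Nuclear respiratory chain genes and cytosolic ribosomal proteins were counted with the same fit. Of 83 nuclear genes of the respiratory chain, 0 were higher and 1 was lower (median log2 fold change -0.07): Ndufc2, a subunit of complex I, at 105, 114 and 102 FPKM in siNC and 59.96, 45.1 and 58.1 FPKM in siMettl3 (log2 fold change -0.98 ± 0.11, SE; adjusted p = 0.0069). Of 105 symbols of cytosolic ribosomal proteins, 10 of which are S6 kinase genes caught by the same letters, 1 was higher (Rpl7l1) and 1 was lower (Rps10), with a median of -0.21 without the kinases. These counts by limma stand beside 10.9% of all genes. DESeq2 called 6 of the 83 and 24 of the 105, beside 18.3% of all genes. Many cytosolic ribosomal protein genes have near-identical copies, and how reads were shared among them is not given. The difference of these medians from those of the mitochondrial ribosomal proteins was not tested.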

How the data were processed

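RNA of 6 libraries, 3 per group, was read from 1 deposited table of 32623 genes with rat Ensembl identifiers. Per the file headers, the authors deposited FPKM and counts for each library. FPKM of 0.0001 stands exactly where the count is 0. Counts were proportional to FPKM within a gene (98.7% of values within 1% of a constant ratio over 14527 genes of 20 counts or more in each library), and may have been derived from coverage. Effective length was taken from that ratio. Bowtie 0.12.2 and the mouse build mm8 are named without a role in the submitters' processing notes. Build, aligner and quantifier of the rat table are not given in the sources used here.

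Values were tested as log2(FPKM + 1), for the 13105 genes whose mean reached 1 FPKM, by limma 3.58.1 (intensity trend, 2-sided) in R 4.3.3 with Benjamini-Hochberg adjustment. Fold changes are siMettl3 minus siNC on that scale and understate changes of low genes. edgeR 4.0.16 (quasi-likelihood) and DESeq2 1.42.0 were run on the counts as alternatives. Other alternatives were pseudocounts of 0.1 and 5, no filter, other scalings, a length correction, a replicate block and leaving out each library. The main limma fit, edgeR and DESeq2 were tested on simulated data, where DESeq2 called more unchanged genes than its threshold allows. The other alternatives were not run on simulated data. With 71202469 to 76668751 counts per library, the spread between libraries limits precision for all family genes tested but Mrps10; between replicates, chi-square over its degrees of freedom was 22.1 to 63.1. The floor of 3 counts covers counting error only.

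The naming rule took Mettl3, and in each subunit the 5 genes with the highest and lowest fold change and the 3 with the highest and lowest level. It also took 10 genes of known role, up to 4 genes of each pathway list by adjusted p and the 5 genes most like the family. Mrpl50, Mrps7, Mrps9, Mrps14, Mrps17 and Mrps26 met the rule but are not described above. Their log2 fold changes were 0.17, 0.05, 0.14, 0.09, -0.16 and -0.10, and none passed the test. Mrpl13, Mrpl47 and Mrps10, and others outside that rule, were named after their values were seen. Members and lists were chosen with earlier results of these data known. Promoters came from RefSeq (GRCr8), matched by symbol.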

Additional observations from a re-analysis of the deposited data

How the results depend on the processing

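The count of family genes past the test was 0 for the small subunit under every alternative run, and 0 for the large subunit under each except the length correction, where it was 2 (Mrpl35 and Mrpl49). The pathway genes past the test, Dap3 included, were 5 in the main fit, all higher. With either other pseudocount they were again 5, all higher. The length correction gave 4 higher and 1 lower, and no filter on low values gave 1 higher. By edgeR only 1 passed, Mt-cyb, which was lower, and by DESeq2 1 was higher and 1 lower. Without the intensity trend 2 were higher. The count was 0 after median-ratio scaling, after quantile normalization, with a replicate block and when any single library was left out. The count over all genes, 1432, was 206 to 861 when single libraries were left out, 2394 by DESeq2 and 903 without the filter. Deviations of same-numbered libraries from their group means correlated at 0.04, -0.26 and -0.12. With 3 libraries in a group, these correlations cannot decide whether the replicate numbers pair the samples. With a replicate block 6 genes in all and 0 of the family passed, and Mettl3 kept its log2 fold change of -0.67 with an adjusted p of 0.073. Mettl3 passed under each other alternative run. Of the 33 family genes that met the naming rule, 0 to 6 changed sign in a given alternative, none of them called. The cause of these moves was not tested. Counting error was below the pooled SD between libraries for all of the 74 genes tested but Mrps10, and Mrps21l rests on a count of 0.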
